A study of Mus musculus with 12 samples.

Results

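The expression of 10 genes that handle lipid and export cholesterol was examined by RNA-seq in bone marrow-derived macrophages (BMDMs), the macrophages that mouse marrow cells become in culture. The genes were *Apoe*, *Apoc2*, *Abca1*, *Abcg1*, *Lpl*, *Fabp4*, *Fabp5*, *Plin2*, *Soat1* and *Ch25h*. They were taken by symbol, as the rows of the deposited count table whose Ensembl identifiers map to these names, and all 10 were found among the 48526 genes of the table. The cells came from 3 female C57Bl/6J mice, whose ages the labels do not give. All of the cells were grown from whole marrow in mCSF, the growth factor that drives macrophage differentiation, and were used on day 7. Each mouse gave an untreated sample and samples exposed for 16 hr to 100 ng/mL Wnt3a, to 100 pg/mL IL-4 or to both, so that there were 4 groups of 3 samples.

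In each mouse, the columns labelled Wnt3a and Wnt3a+IL-4 share reads, since 0 of 48526 genes had a Wnt3a count outside 1 to 2 times the Wnt3a+IL-4 count. Of these genes, 23413 had a count in any column, and the others could not fall outside. Each mouse is therefore described by its untreated and IL-4 libraries and by a pair of Wnt3a-treated parts. The first, called the difference, is what is left of the Wnt3a column once the Wnt3a+IL-4 column is subtracted. The other, called the remainder, is 2 times the Wnt3a+IL-4 column less the Wnt3a column. Both parts hold Wnt3a-treated cells, and the labels do not give which of them also received IL-4. The 12 libraries so defined held between 13342492 and 17453377 counts. All 8 macrophage markers that were checked (among them *Csf1r*, *Adgre1* and *Cd68*) had at least 10 counts in at least 3 libraries. Their summed levels ran from 43979 to 68614 CPM (counts scaled to a common library size). *Fabp4*, *Lpl* and *Plin2* are also adipocyte genes. Of 6 adipocyte markers, *Lep*, *Plin1*, *Cfd* and *Pck1* had 0 counts in all 12 libraries, and the 6 together reached at most 0.599 CPM. Summed stromal markers stayed at or below 30.4 CPM. Summed dendritic cell markers were 0.965 to 1.40 CPM in untreated cells, 1.59 to 1.74 with IL-4, 2.98 to 7.67 in the difference and 8.48 to 21.1 in the remainder, and their part in the changes of the remainder was not tested. In bulk RNA, fewer cells of a type and less RNA per cell cannot be told apart.

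Macrophages take up lipoproteins, break down their lipids in lysosomes, store cholesterol as esters in lipid droplets and return the excess to acceptors outside the cell. The transporters ABCA1 and ABCG1 hand cholesterol to apolipoproteins and to HDL, and secreted apolipoprotein E serves as a further acceptor. Many of these genes are controlled by liver X receptors (LXRs), which sense oxysterols, and by peroxisome proliferator-activated receptors (PPARs), which sense fatty acids. IL-4 is a classical inducer of PPARγ in macrophages, and lipid-laden macrophages are the foam cells of atherosclerotic plaques.

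Per kilobase of exon, *Apoe* stood far above the other members in untreated cells, at 7316 ± 1661 CPM per kb (SD, n = 3). The lipid droplet coat gene *Plin2* followed at 417 ± 53.1, and the lipase gene *Lpl* came next at 124 ± 14.0 CPM per kb. After it stood *Soat1*, the gene of a cholesterol-esterifying enzyme, at 54.2 ± 1.71 CPM per kb. *Fabp5* at 37.7 ± 4.02 and *Abcg1* at 33.1 ± 4.04 CPM per kb did not differ beyond their spread, nor did *Abca1* at 14.5 ± 3.08 and *Fabp4* at 12.4 ± 0.38 CPM per kb. Exon length was the union of all annotated exons. For *Fabp4* this was 4489 bases, its whole gene from start to end, and for *Fabp5* 3567 bases. It was 10478 bases for *Lpl* and 9791 for *Soat1*. Where transcripts are shorter, levels per kb come out too low, so the places of these genes in the order are uncertain. *Ch25h* was low, at 1.43 ± 0.28 CPM per kb, and *Apoc2* was at the limit of detection, with counts that an overlapping gene makes uncertain. *Apoe* alone took 1.26%, 1.83% and 1.78% of all counts in the untreated libraries of mouse 1, 2 and 3, and was the 6th, 5th and 5th most counted gene there. The 10 genes together held 2.03% ± 0.32 (SD, n = 3) of the counts in untreated cells, 1.82% ± 0.17 in IL-4-treated cells, 0.928% ± 0.25 in the difference and 0.755% ± 0.13 in the remainder.

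**Figure D1:**
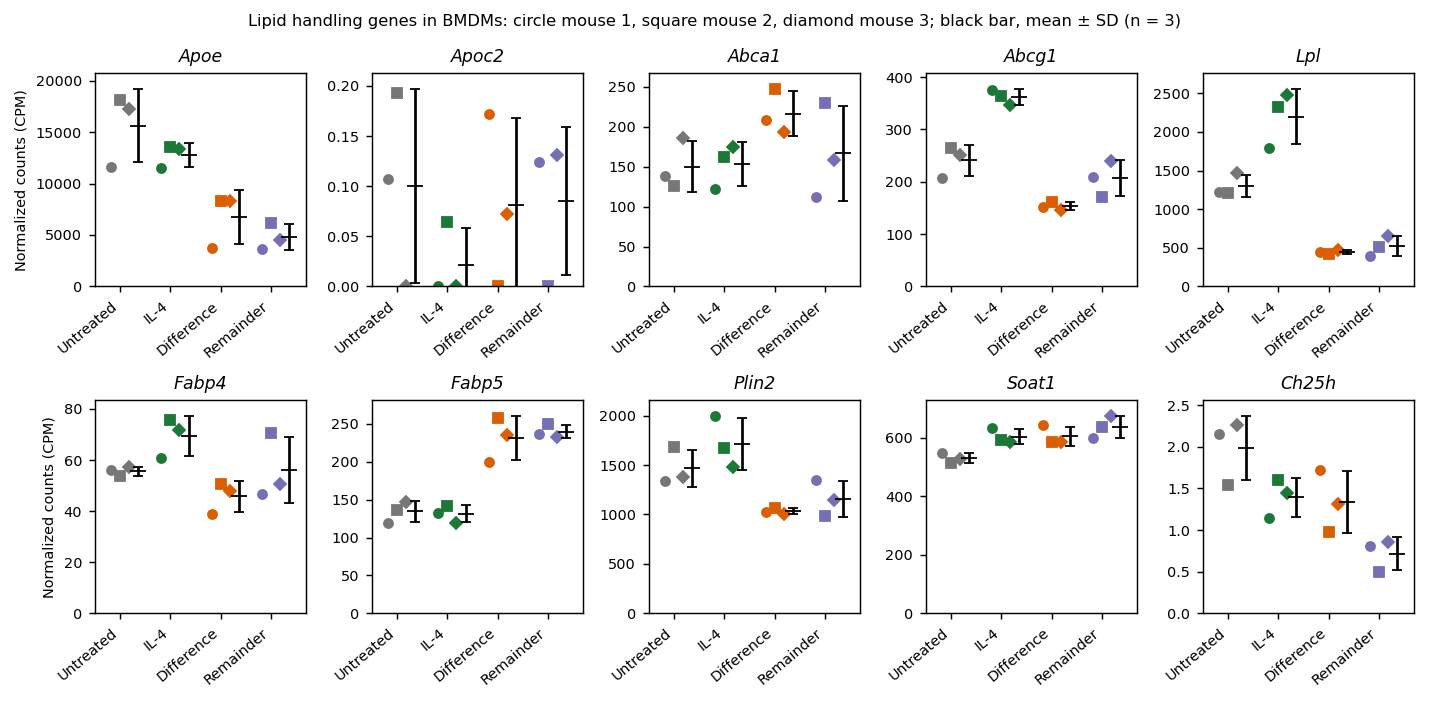
Normalized counts (CPM, linear axes from 0) of the 10 genes in the untreated and IL-4 libraries and in the difference and remainder of each mouse, with black bars for the mean ± SD of 3 mice. *Apoe* and *Lpl* sit lower in both Wnt3a-treated parts than in untreated cells and *Fabp5* sits higher, while *Apoc2* stays below 0.2 CPM throughout.

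Wnt3a-treated cells held less *Apoe* mRNA, and IL-4 alone gave no change past the threshold. *Apoe* (ENSMUSG00000002985, minus strand of chromosome 7 of mm10, 19696109 to 19699188) encodes apolipoprotein E, which carries cholesterol away from macrophages. It stood at 11565, 18079 and 17278 CPM in untreated cells of mouse 1, 2 and 3, and at 11486, 13604 and 13377 CPM in IL-4-treated cells. The difference held 3691, 8292 and 8295 CPM, and the remainder 3657, 6124 and 4559 CPM. Every value of either Wnt3a-treated part lay below every untreated and every IL-4 value, and mouse 1 was lowest in each of the 4 groups. The level was 2.31-fold lower in the difference than in untreated cells (log2 fold change -1.21, SE 0.27, adjusted p = 0.0049) and 3.27-fold lower in the remainder (-1.71, SE 0.27, adjusted p = 0.00035). Adjusted p-values are from edgeR's quasi-likelihood test with Benjamini-Hochberg correction over all 12421 genes tested, here and throughout, and a gene is said to rise or fall only where this value is below 0.05. The call in the remainder held without any 1 mouse, and that in the difference was lost without mouse 3 (-1.30, adjusted p = 0.071). IL-4 alone gave a log2 fold change of -0.29 (SE 0.27, adjusted p = 0.71).

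*Lpl* moved in opposite directions under IL-4 and in the Wnt3a-treated parts. *Lpl* (ENSMUSG00000015568, plus strand of chromosome 8, 68880491 to 68907448) encodes lipoprotein lipase, which releases fatty acids from triglyceride-rich lipoproteins. It measured 1220, 1207 and 1467 CPM in untreated cells and 1796, 2323 and 2478 CPM with IL-4. In the difference it measured 447, 418 and 466 CPM, and in the remainder 396, 511 and 657 CPM. The untreated values overlapped with no other group, while the difference and the remainder overlapped with each other. *Lpl* rose 1.69-fold with IL-4 (log2 fold change 0.76, SE 0.16, adjusted p = 0.015), and was 2.93-fold lower in the difference (-1.55, SE 0.16, adjusted p = 9.2e-06) and 2.49-fold lower in the remainder (-1.32, SE 0.16, adjusted p = 3.3e-05). The IL-4 call was lost without mouse 2 (0.66, adjusted p = 0.15) or mouse 3 (0.75, adjusted p = 0.11), and both Wnt3a-side calls held without any 1 mouse. The summed level of 9 neutrophil markers also ran higher with IL-4 (65.0 to 75.7 CPM) than in untreated cells (48.9 to 61.7 CPM) and lower in the remainder (32.0 to 36.3 CPM), with 35.7 to 56.7 CPM in the difference. Its part in the *Lpl* result was not tested.

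*Apoc2* (ENSMUSG00000002992, minus strand of chromosome 7, 19671579 to 19677941), whose product is the cofactor that lipoprotein lipase needs, could not be compared. Its counts in mouse 1, 2 and 3 were 2, 3 and 0 in untreated cells, 0, 1 and 0 with IL-4, 3, 0 and 1 in the difference and 2, 0 and 2 in the remainder. With 14 counts over 12 libraries it fell below the filter of at least 10 counts in at least 3 libraries, and every library was within the 3 counts taken as the floor of detection. Of its exon bases, 79.5% also lie in *Gm44805* on the same strand, which had 0 counts in all 12 libraries, so its counts are uncertain.

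Of the exporters, *Abca1* gave values that passed or missed the threshold depending on the filter and the libraries fitted. *Abca1* (ENSMUSG00000015243, minus strand of chromosome 4, 53030787 to 53159895) encodes the transporter that passes cholesterol to lipid-poor apolipoproteins. It stood at 138, 126 and 186 CPM in untreated cells, 122, 162 and 175 CPM with IL-4, 209, 247 and 193 CPM in the difference and 112, 230 and 159 CPM in the remainder. The difference lay above the untreated values in all 3 mice, by as little as 0.05 on the log2 scale in mouse 3, and the remainder spanned the untreated range. Its log2 fold changes against untreated cells were 0.03 (SE 0.22, adjusted p = 0.98) with IL-4, 0.53 (SE 0.22, adjusted p = 0.1) in the difference and 0.15 (SE 0.22, adjusted p = 0.66) in the remainder. With only the untreated libraries and the difference in the fit, the second of these passed (0.54, adjusted p = 0.031), as it did with no filter on low counts (0.54, adjusted p = 7.4e-07). The difference against IL-4 gave 0.50 (SE 0.22, adjusted p = 0.14), and passed under the same settings (0.51, adjusted p = 0.019, and 0.52, adjusted p = 2e-06). The remainder against the difference gave -0.38 (SE 0.22, adjusted p = 0.38), and passed with no filter (-0.38, adjusted p = 0.0027).

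*Abcg1* rose with IL-4 and was lower in the difference. *Abcg1* (ENSMUSG00000024030, plus strand of chromosome 17, 31057675 to 31117988) encodes the transporter that passes cholesterol to HDL. It measured 208, 264 and 252 CPM in untreated cells, 376, 365 and 346 CPM with IL-4, 152, 161 and 146 CPM in the difference and 210, 171 and 240 CPM in the remainder. The IL-4 values lay above all others and the values of the difference below all others, and only the untreated cells and the remainder overlapped. *Abcg1* was 1.50-fold higher with IL-4 (log2 fold change 0.59, SE 0.11, adjusted p = 0.0091) and 1.57-fold lower in the difference (-0.65, SE 0.12, adjusted p = 0.00087). In the remainder the log2 fold change was -0.22 (SE 0.11, adjusted p = 0.18). The call with IL-4 was lost without mouse 1 (0.47, adjusted p = 0.14) or mouse 3 (0.64, adjusted p = 0.13). Neutrophil markers, whose levels are given with *Lpl*, were also highest with IL-4, and their part in the *Abcg1* result was not tested.

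The 250 bases upstream of the start sites of *Abca1* and *Apoe* are shown because both genes are known LXR targets and *Apoe* fell, and those of *Plin2* because it is a known PPAR target. LXRs bind direct repeats of the sequence AGGTCA with 4 bases between the copies, and PPARs bind repeats with 1 base between. Both strands were searched, and the capitals mark the best match to either repeat in each window. Sequences are from RefSeq (GRCm38.p6), 5′ to 3′ on the strand of the gene, which is the minus strand for all 3.
*Abca1*, chr4:53159896-53160145: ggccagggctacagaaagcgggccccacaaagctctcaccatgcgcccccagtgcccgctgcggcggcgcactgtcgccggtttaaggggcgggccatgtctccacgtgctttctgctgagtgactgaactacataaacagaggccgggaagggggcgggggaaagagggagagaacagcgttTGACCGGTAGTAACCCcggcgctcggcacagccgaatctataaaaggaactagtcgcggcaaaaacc
*Apoe*, chr7:19699189-19699438: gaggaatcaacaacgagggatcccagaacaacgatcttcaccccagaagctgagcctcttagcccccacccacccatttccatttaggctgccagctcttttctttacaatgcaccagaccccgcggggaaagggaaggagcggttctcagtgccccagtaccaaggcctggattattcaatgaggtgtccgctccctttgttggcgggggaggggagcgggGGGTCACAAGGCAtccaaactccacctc
*Plin2*, chr4:86670060-86670309: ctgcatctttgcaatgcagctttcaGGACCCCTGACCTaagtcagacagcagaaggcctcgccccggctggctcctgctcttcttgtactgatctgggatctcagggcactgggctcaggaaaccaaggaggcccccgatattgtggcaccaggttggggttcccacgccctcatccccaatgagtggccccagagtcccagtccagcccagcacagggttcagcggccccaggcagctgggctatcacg
In *Abca1* the capitals mark a repeat with 4 bases between on the opposite strand, from -67 to -52 relative to the start, with 3 mismatches among the 12 fixed bases. Among all 32851 promoters of the table, 18.5% held a match at least this close in the same 250 bases. The best match of *Abca1* to the repeat with 1 base between, with 5 mismatches, runs from -57 to -45 and overlaps it. In *Apoe* they mark a repeat with 1 base between, from -28 to -16, with 3 mismatches (21.3% of promoters). The best match in this *Apoe* window to the LXR repeat, with 4 bases between, had 5 mismatches. In *Plin2* they mark a repeat with 1 base between, from -225 to -213 on the opposite strand with 2 mismatches (3.24% of promoters). *Apoc2* held the closest match among the members, with 1 mismatch to the repeat with 1 base between from -122 to -110 (0.484% of promoters). The best matches of *Soat1* and *Ch25h* to either repeat had 4 or more mismatches. The table gives *Apoe* a further pair of starts, whose best matches had 4 mismatches. *Abcg1*, *Lpl*, *Fabp4* and *Fabp5* have no entry. A match describes letters, not binding.

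Of the 2 fatty acid binding protein genes among the members, *Fabp5* rose in both Wnt3a-treated parts. *Fabp5* (ENSMUSG00000027533, plus strand of chromosome 3, 10012548 to 10016607) encodes a chaperone that moves fatty acids within the cell. It measured 119, 137 and 147 CPM in untreated cells and 132, 142 and 120 CPM with IL-4. In the difference it measured 200, 258 and 236 CPM, and in the remainder 237, 250 and 232 CPM. Both Wnt3a-treated parts lay wholly above the untreated and IL-4 values. *Fabp5* was 1.72-fold higher in the difference (log2 fold change 0.78, SE 0.10, adjusted p = 8e-05) and 1.78-fold higher in the remainder (0.84, SE 0.10, adjusted p = 3.6e-05), and both calls held without any 1 mouse. IL-4 alone gave -0.03 (SE 0.10, adjusted p = 0.93). Of the 50-base stretches of *Fabp5* transcripts, 5.48% are found in other genes as well, *Gm6166* more than any, and *Gm6166* itself had 32 to 62 counts in untreated cells, 82 to 103 in the difference and 70 to 125 in the remainder.

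*Fabp4* (ENSMUSG00000062515, minus strand of chromosome 3, 10204088 to 10208576) encodes the fatty acid binding protein shared by adipocytes and macrophages. It measured 56.0, 53.8 and 57.1 CPM in untreated cells, 60.8, 75.7 and 71.9 CPM with IL-4, 38.9, 50.6 and 47.8 CPM in the difference and 46.7, 70.7 and 50.5 CPM in the remainder. The IL-4 values lay above and those of the difference below all untreated values, but none of the comparisons with untreated cells passed the threshold. The log2 fold changes were 0.32 (SE 0.14, adjusted p = 0.32) with IL-4, -0.28 (SE 0.14, adjusted p = 0.18) in the difference and 0.01 (SE 0.14, adjusted p = 0.98) in the remainder.

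Of the droplet genes, *Plin2* was lower in the difference and *Soat1* slightly higher in the remainder. *Plin2* (ENSMUSG00000028494, minus strand of chromosome 4, 86648386 to 86670060) encodes perilipin 2, the main droplet coat protein of macrophages. It measured 1341, 1680 and 1376 CPM in untreated cells, 1996, 1674 and 1477 CPM with IL-4, 1029, 1068 and 1010 CPM in the difference and 1348, 988 and 1142 CPM in the remainder. Only the difference lay wholly below the untreated values. *Plin2* was 1.42-fold lower there (log2 fold change -0.50, SE 0.13, adjusted p = 0.012), and the call was lost without mouse 2 (-0.42, adjusted p = 0.066) or mouse 3 (-0.52, adjusted p = 0.11). The remainder gave -0.34 (SE 0.13, adjusted p = 0.073), which passed without mouse 1 (-0.52, adjusted p = 0.01), and IL-4 gave 0.23 (SE 0.13, adjusted p = 0.48).

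*Soat1* (ENSMUSG00000026600, minus strand of chromosome 1, 156424525 to 156474331) encodes sterol O-acyltransferase 1, the enzyme that esterifies cholesterol, and varied little among mice, with a coefficient of variation between 3.15% and 5.98% in each group. It measured 548, 515 and 528 CPM in untreated cells, 634, 592 and 585 CPM with IL-4, 642, 586 and 586 CPM in the difference and 597, 637 and 673 CPM in the remainder. All 3 other groups lay above the untreated values. The increase passed the threshold in the remainder, at 1.20-fold (log2 fold change 0.26, SE 0.07, adjusted p = 0.02), against 0.19 with IL-4 (SE 0.07, adjusted p = 0.25) and 0.19 in the difference (SE 0.07, adjusted p = 0.085), which passed with DESeq2 (0.20, adjusted p = 0.042) and with the deposited columns (0.20, adjusted p = 0.011). The call in the remainder was lost without mouse 2 (0.25, adjusted p = 0.1), without mouse 3 (0.22, adjusted p = 0.28), with only these groups in the fit (0.25, adjusted p = 0.077), and with libraries scaled by total counts alone (0.15, adjusted p = 0.14).

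*Ch25h* (ENSMUSG00000050370, minus strand of chromosome 19, 34473778 to 34475164) encodes cholesterol 25-hydroxylase, which makes the oxysterol 25-hydroxycholesterol. It had few reads, 40, 24 and 36 counts in untreated cells, 19, 25 and 20 with IL-4, 30, 16 and 18 in the difference and 13, 8 and 13 in the remainder. In CPM these were 2.15, 1.54 and 2.26 in untreated cells and 0.807, 0.492 and 0.854 in the remainder, the only group below all others. *Ch25h* was 2.76-fold lower in the remainder than in untreated cells (log2 fold change -1.46, SE 0.31, adjusted p = 0.0026), a call that was lost without mouse 3 (-1.50, adjusted p = 0.065). The difference gave -0.57 (SE 0.28, adjusted p = 0.16) and IL-4 gave -0.52 (SE 0.28, adjusted p = 0.44). On the other strand, *Gm26902* covers 11.5% of its exon bases and had 5 to 8 counts in untreated cells and 2 to 3 in the remainder. Whether counting used the strand is not given in the sources used here, so these reads cannot be assigned with certainty.

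**Figure D2:**
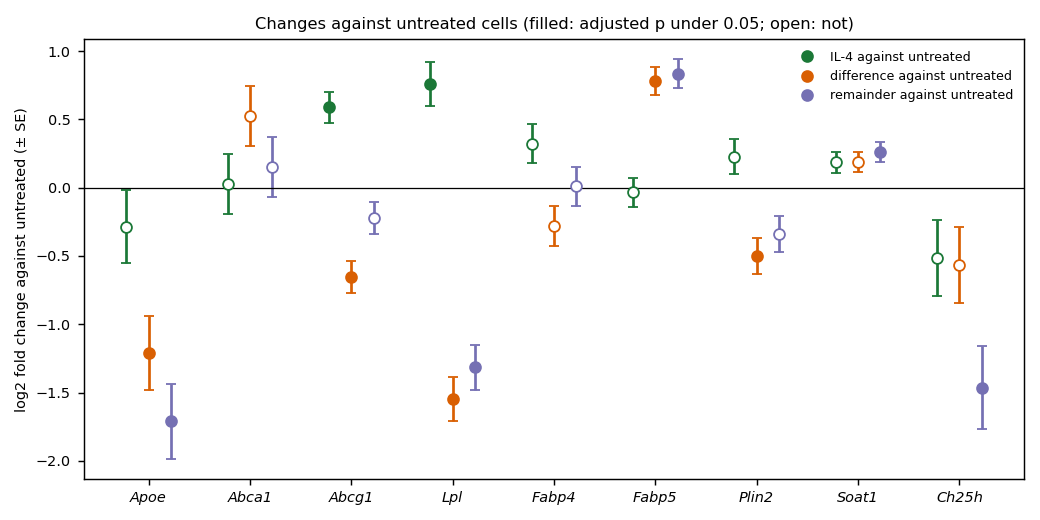
Log2 fold changes against untreated cells with standard errors (edgeR, 3 mice per group) of the 9 genes tested, for IL-4, the difference and the remainder. Filled points passed an adjusted p of 0.05, namely 2 genes for IL-4, 5 for the difference and 5 for the remainder. *Lpl* and *Abcg1* lie above 0 with IL-4 and below 0 in both parts, although the value of *Abcg1* in the remainder did not pass.

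Counted over the members, IL-4 alone raised 2 of the 9 tested (*Abcg1* and *Lpl*), and 4 had an unadjusted p under 0.05, all of them higher. Among all 12421 genes tested, 3.4% were called against untreated cells, with 2.31% higher and 1.09% lower. In the difference, 1 of the 9 members tested rose (*Fabp5*) and 4 fell (*Apoe*, *Abcg1*, *Lpl* and *Plin2*), beside 23.2% of all genes called, 11.8% higher and 11.4% lower. In the remainder, 2 rose (*Fabp5* and *Soat1*) and 3 fell (*Apoe*, *Lpl* and *Ch25h*), beside 25.3% of all genes called, 13.6% higher and 11.7% lower. The median log2 fold change of the 9 was 0.19 with IL-4, -0.50 in the difference and -0.22 in the remainder, against -0.00302, -0.01 and -0.02 over all genes. These 3 comparisons share the untreated libraries. With scaling by total counts alone, the median of all genes shifted to -0.10 in the difference and -0.13 in the remainder. The genes called higher and lower were then 247 and 212 with IL-4 (287 and 135 in the main scaling), 1131 and 2238 in the difference (1462 and 1422), and 1293 and 2342 in the remainder (1687 and 1450). Under that scaling, *Abcg1* (-0.33, adjusted p = 0.026) and *Plin2* (-0.44, adjusted p = 0.0083) also passed as lower in the remainder. Without mouse 3, 0 members were called with IL-4, 3 in the difference and 3 in the remainder. The untreated values of *Lpl* and *Abcg1* lay between their IL-4 values and those of the difference in every mouse.

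The Wnt3a-treated parts were compared with each other and with IL-4 alone. Between the remainder and the difference, *Abcg1* alone passed, higher in the remainder in 3 of 3 mice (log2 fold change 0.43, SE 0.12, adjusted p = 0.044), beside 5.25% of all genes. That call was lost with the mouse as a replicate block (0.43, adjusted p = 0.079), with only these parts in the fit (0.43, adjusted p = 0.087), and without mouse 1 (0.42, adjusted p = 0.18) or mouse 3 (0.29, adjusted p = 0.57). *Apoe* was lower in the remainder in 3 of 3 mice, by 0.01, 0.44 and 0.86 on the log2 scale, and did not pass (-0.50, SE 0.27, adjusted p = 0.34), although it did without mouse 1 (-0.64, adjusted p = 0.019). *Ch25h* was also lower in all 3 mice, with no overlap between the parts (-0.90, SE 0.32, adjusted p = 0.14).

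Against IL-4-treated cells, the remainder had 1 member higher (*Fabp5*) and 4 lower (*Apoe*, *Abcg1*, *Lpl* and *Plin2*), beside 20.3% of all genes called, 10.6% higher and 9.67% lower. The difference had the same genes called in the same directions and *Fabp4* lower as well, beside 20.3% of all genes, 10.0% higher and 10.3% lower. *Lpl* stood farthest apart, 4.22-fold lower in the remainder (log2 fold change -2.08, SE 0.17, adjusted p = 7e-07) and 4.95-fold lower in the difference (-2.31, SE 0.17, adjusted p = 2.6e-07). *Abcg1* was 1.75-fold lower in the remainder (-0.81, SE 0.11, adjusted p = 0.00015) and 2.37-fold lower in the difference (-1.24, SE 0.12, adjusted p = 2.5e-06). *Fabp4* was 1.52-fold lower in the difference (-0.60, SE 0.14, adjusted p = 0.0075), in 3 of 3 mice. For *Ch25h* the remainder gave -0.95 (SE 0.32, adjusted p = 0.051). *Abca1* gave 0.50 in the difference (SE 0.22, adjusted p = 0.14), which passed with only these groups in the fit (0.51, adjusted p = 0.019). Without mouse 3, *Apoe* was no longer called in the remainder (-1.34, adjusted p = 0.073) or the difference (-1.05, adjusted p = 0.15), nor *Plin2* in the remainder (-0.63, adjusted p = 0.069) or *Fabp4* in the difference (-0.59, adjusted p = 0.13). *Fabp4* passed in the remainder without mouse 2 (-0.43, adjusted p = 0.033). *Lpl*, *Abcg1* and *Fabp5* kept their calls against IL-4 in both parts whichever mouse was left out.

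Whether IL-4 acted differently with Wnt3a depends on which part received it, and both readings were tested as an interaction. If the remainder is the part with IL-4, 0 of the 9 members passed (edgeR), 1 had an unadjusted p under 0.05 (*Lpl*, log2 interaction -0.53, SE 0.23, adjusted p = 0.36), beside 0.105% of all genes. DESeq2 also called 0 members, among 165 genes called. If the difference is the part with IL-4, *Abcg1* (-1.02, SE 0.16, adjusted p = 0.001) and *Lpl* (-0.99, SE 0.23, adjusted p = 0.014) passed, beside 7.33% of all genes. In that reading IL-4 alone raised both genes, while in the presence of Wnt3a its log2 change was the remainder-to-difference value with its sign turned, and that value was 0.43 for *Abcg1* (above) and 0.23 for *Lpl* (SE 0.16, adjusted p = 0.46). Within each mouse, the log2 ratio of IL-4 to untreated of *Abcg1* was 0.85, 0.47 and 0.46 and its log2 ratio of remainder to difference was 0.47, 0.08 and 0.71. For *Lpl* the first ratio was 0.56, 0.94 and 0.76, and the second was -0.17, 0.29 and 0.49. Without mouse 3 neither interaction passed (*Abcg1* -0.92, adjusted p = 0.063, and *Lpl* -0.82, adjusted p = 0.15), and that of *Lpl* was also lost without mouse 2 (-0.88, adjusted p = 0.073) and with the deposited columns (-0.79, adjusted p = 0.062). *Apoe* passed in the opposite direction without mouse 1 (1.02, adjusted p = 0.0062), as did *Ch25h* without mouse 2 (1.65, adjusted p = 0.048).

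**Figure D3:**
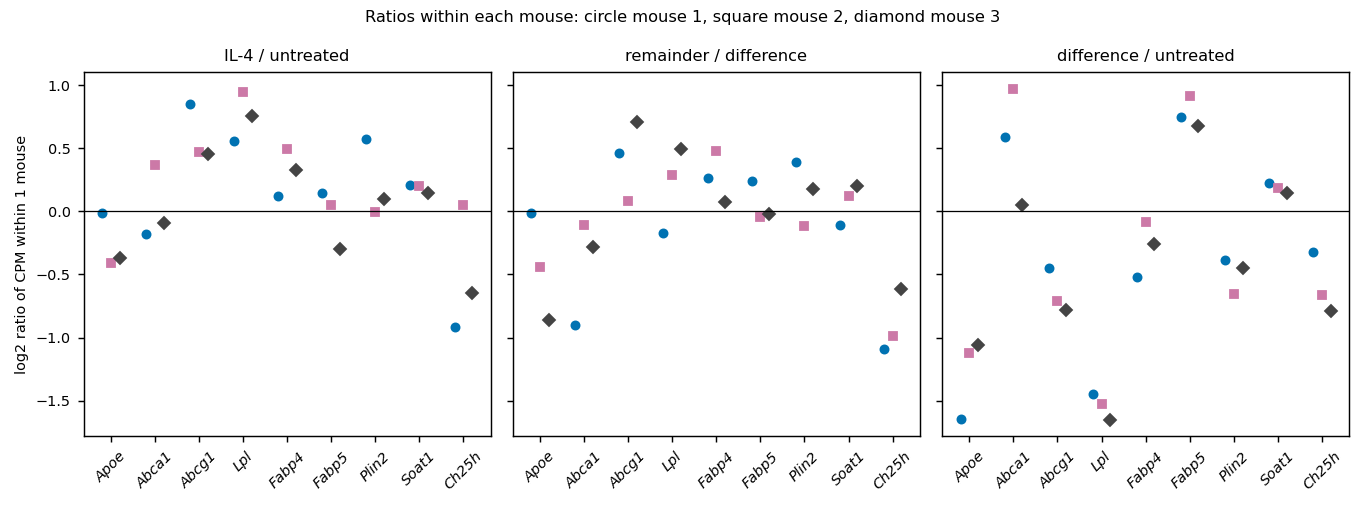
Log2 ratios of CPM within each mouse for the 9 genes tested, as IL-4 to untreated, remainder to difference, and difference to untreated, with a symbol for each of the 3 mice. *Abcg1* lies above 0 in all 3 mice in the first 2 panels and below 0 in the third, and *Lpl* lies between -1.65 and -1.45 in the third.

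Of 59 further genes of lipid handling in 7 lists, 40 were tested. With IL-4, 4 rose and none fell, in the difference 8 rose and 9 fell, and in the remainder 12 rose and 9 fell. The medians over these 40 were 0.10, 0.011 and 0.13 on the log2 scale. Over all genes, the shares called were the 3.4%, 23.2% and 25.3% given above. Between the parts, *Pparg*, *Cd36*, *Arl4c* and *Gpr183* were higher in the remainder and *Mylip* and *Apoc1* lower, beside 5.25% of all genes. Without mouse 3, *Cd36*, *Arl4c*, *Mylip* and *Apoc1* were not called there. The calls of *Mylip* (adjusted p = 0.052 and 0.1) and *Apoc1* (0.1 and 0.16) were also lost without mouse 1 or mouse 2. With the difference read as the part with IL-4, *Pparg* (-1.79), *Cd36* (-1.97), *Gpr183* (-1.67), *Arl4c* (-0.92) and *Mylip* (0.61) passed the interaction. So did the lysosomal export genes *Npc1* (-0.45, adjusted p = 0.012) and *Npc2* (-0.555, adjusted p = 0.041), beside 7.33% of all genes. Read the other way, these genes did not pass. The interaction call of *Mylip* was lost without mouse 2 (0.62, adjusted p = 0.06) or mouse 3 (0.66, adjusted p = 0.19). It was also lost with the deposited columns (0.27, adjusted p = 0.51).

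Among 9 tested nuclear receptors and regulators, 1 rose with IL-4, and in each Wnt3a-treated part 2 rose and 2 fell. *Pparg* showed the same order of groups as *Abcg1*. It encodes PPARγ and measured 46.5, 54.6 and 48.7 CPM in untreated cells, 101, 96.4 and 86.1 CPM with IL-4, 12.8, 14.4 and 14.4 CPM in the difference and 24.5, 24.1 and 27.7 CPM in the remainder. None of its groups overlapped. It rose with IL-4 (log2 fold change 0.92, SE 0.09, adjusted p = 4.9e-05) and was lower in the difference (-1.85, SE 0.10, adjusted p = 2.1e-08) and the remainder (-0.98, SE 0.10, adjusted p = 4.7e-06). The LXR genes *Nr1h2* and *Nr1h3* did not pass against untreated cells, with log2 fold changes of -0.14 and -0.06 in the difference and -0.10 and 0.10 in the remainder. *Mylip*, an LXR target that encodes a ubiquitin ligase, was lower in the difference (-0.71, SE 0.11, adjusted p = 0.00023) and the remainder (-1.12, SE 0.11, adjusted p = 3.2e-06). *Srebf2*, the master regulator of cholesterol synthesis, rose in both parts (0.59, SE 0.08, adjusted p = 7.4e-05, and 0.60, SE 0.08, adjusted p = 5.2e-05).

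Of 7 tested lipoprotein partners and lipase cofactors, none passed with IL-4, 1 rose and 2 fell in the difference, and 1 rose and 3 fell in the remainder. *Lrp1*, whose product takes up apolipoprotein E-rich remnants, fell from 2409 ± 272 CPM (SD, n = 3) to 1068 ± 79.4 in the difference and 1176 ± 247 in the remainder. *Angptl4*, which encodes an inhibitor of lipoprotein lipase, fell from 45.4 ± 6.79 CPM to 13.0 ± 2.84 in the difference and 12.8 ± 0.90 in the remainder (log2 fold changes -1.80, SE 0.17, adjusted p = 2.7e-06, and -1.83, SE 0.17, adjusted p = 2e-06). *Apoc1*, a small apolipoprotein gene, had 24, 15 and 13 counts in untreated cells, 16, 16 and 11 with IL-4, 15, 19 and 18 in the difference and 8, 8 and 7 in the remainder. At these low counts it was lower in the remainder than in untreated cells (log2 fold change -1.08, SE 0.31, adjusted p = 0.02) and than in the difference (-1.17, SE 0.31, adjusted p = 0.044). Both calls were lost without any 1 mouse (adjusted p = 0.16, 0.086 and 0.1 for the first without mouse 1, 2 and 3, and 0.1, 0.16 and 0.47 for the second), with DESeq2 (0.095 and 0.14), with no filter on low counts (0.071 and 0.081) and with the deposited columns (-0.40, adjusted p = 0.25, and -0.18, adjusted p = 1.0). Both were also lost with only the groups compared (adjusted p = 0.053 and 0.086), and the second with the mouse as replicate block (adjusted p = 0.074).

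Of 7 tested genes for uptake and lysosomal export, *Cd36*, the fatty acid translocase gene, rose with IL-4. It measured 138, 105 and 163 CPM in untreated cells, 294, 343 and 348 CPM with IL-4, 89.9, 70.0 and 68.7 CPM in the difference and 115, 139 and 117 CPM in the remainder. The IL-4 values lay above all others and the values of the difference below all others (log2 fold changes against untreated cells 1.28, SE 0.15, adjusted p = 0.00016, and -0.83, SE 0.15, adjusted p = 0.001). The call in the difference was lost without mouse 3 (-0.60, adjusted p = 0.073), and the remainder gave -0.13 (SE 0.15, adjusted p = 0.55). *Lipa*, the lysosomal acid lipase gene, was lower in both parts (-0.91, SE 0.10, adjusted p = 1.7e-05, and -0.93, SE 0.10, adjusted p = 1.1e-05). In this list 2 rose and 3 fell in the difference, and 3 rose and 2 fell in the remainder. *Msr1*, the scavenger receptor A gene, was higher in the difference (0.75, SE 0.15, adjusted p = 0.0028) and in the remainder (0.45, SE 0.15, adjusted p = 0.047), where the call was lost without mouse 2 (0.28, adjusted p = 0.16) or mouse 3 (0.57, adjusted p = 0.14).

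*Acsl1*, whose product activates long-chain fatty acids, had the widest change among 10 tested genes of droplet storage and hydrolysis. It measured 59.2, 62.3 and 62.0 CPM in untreated cells, 59.7, 61.7 and 52.7 CPM with IL-4, 332, 329 and 262 CPM in the difference and 246, 307 and 229 CPM in the remainder. The increase was 2.33 in the difference (SE 0.12, adjusted p = 1.4e-08) and 2.09 in the remainder (SE 0.12, adjusted p = 2.6e-08) on the log2 scale, with no overlap with untreated or IL-4-treated cells. *Dgat2*, which encodes an enzyme of triglyceride synthesis, had only 7, 8 and 9 counts in untreated cells. It rose from 0.485 ± 0.10 CPM (SD, n = 3) there to 1.18 ± 0.24 in the difference and 1.31 ± 0.34 in the remainder. With IL-4 it measured 0.962 ± 0.30 CPM and did not pass (0.98, SE 0.36, adjusted p = 0.2). Neither part was called against IL-4 (0.31, adjusted p = 0.57, in the difference, and 0.45, adjusted p = 0.36, in the remainder). Each call against untreated cells was lost without some mouse. In the difference these were mouse 1 (0.96, adjusted p = 0.2) and mouse 2 (1.36, adjusted p = 0.066). In the remainder they were mouse 1 (1.36, adjusted p = 0.058) and mouse 3 (1.33, adjusted p = 0.081). In this list 1 rose with IL-4, 2 rose in the difference, and 2 rose and 1 fell in the remainder. The gene called with IL-4 was *Abhd5*, which encodes an activator of triglyceride lipase (0.37, SE 0.10, adjusted p = 0.048). *Pnpla2*, the adipose triglyceride lipase gene, was lower in the remainder (-0.34, SE 0.10, adjusted p = 0.022), a call lost without mouse 2 (-0.17, adjusted p = 0.27) or mouse 3 (-0.37, adjusted p = 0.14), and gave -0.28 in the difference (SE 0.10, adjusted p = 0.062), which passed without mouse 1 (-0.33, adjusted p = 0.047).

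Of the 3 other efflux and membrane genes tested, *Abca7*, a phospholipid and cholesterol transporter gene related to *Abca1*, rose from 88.6 ± 7.78 CPM (SD, n = 3) to 136 ± 3.52 in the difference and 118 ± 15.1 in the remainder. The second of these calls was lost without mouse 3 (0.29, adjusted p = 0.21). *Arl4c*, an LXR-responsive gene linked to cholesterol transport, measured 268 ± 17.6 CPM in untreated cells, 331 ± 16.2 with IL-4, 223 ± 23.4 in the difference and 342 ± 6.07 in the remainder. Its fall in the difference (-0.26, adjusted p = 0.036) was lost without any 1 mouse (adjusted p = 0.053, 0.15 and 0.18 without mouse 1, 2 and 3), with no filter on low counts (0.064) and with the deposited columns (0.68). It was higher in the remainder than in the difference (log2 fold change 0.62, SE 0.09, adjusted p = 0.00057), a call lost without mouse 3 (0.68, adjusted p = 0.057). *Lpcat3*, which encodes an enzyme that remodels membrane phospholipids, gave 0.27 in the remainder (SE 0.08, adjusted p = 0.028), lost without mouse 1 (0.22, adjusted p = 0.17) or mouse 3 (0.22, adjusted p = 0.31). With scaling by total counts alone, the remainder was no longer called for *Abca7* (0.30, adjusted p = 0.051), *Lpcat3* (0.16, adjusted p = 0.12) or *Msr1* (0.34, adjusted p = 0.17). With only the groups compared in the fit, the remainder was no longer called for *Lpcat3* (0.26, adjusted p = 0.09), *Msr1* (0.44, adjusted p = 0.06), *Pnpla2* (-0.35, adjusted p = 0.056) or *Apoc1* (-1.09, adjusted p = 0.053), nor the difference for *Arl4c* (-0.25, adjusted p = 0.082). Of the 3 efflux and membrane genes, 1 rose and 1 fell in the difference, and 3 rose in the remainder. Without mouse 3 none of the 3 was called in the remainder (*Arl4c* 0.38, adjusted p = 0.097, the others as above).

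Of 5 oxysterol genes, 2 were tested. *Cyp27a1*, which encodes sterol 27-hydroxylase, was lower in both parts (log2 fold changes -1.06, SE 0.15, adjusted p = 0.00013, and -1.07, SE 0.15, adjusted p = 9.9e-05). *Gpr183*, which encodes the receptor for an oxysterol made from the product of *Ch25h*, measured 20.3 ± 1.50 CPM (SD, n = 3) in untreated cells, 35.5 ± 1.46 with IL-4, 17.7 ± 0.63 in the difference and 32.3 ± 1.20 in the remainder. It rose with IL-4 (0.81, SE 0.09, adjusted p = 0.00011) and in the remainder (0.67, SE 0.09, adjusted p = 7.6e-05), and gave -0.20 in the difference (SE 0.09, adjusted p = 0.14). Of 5 other fatty acid binding protein genes, 2 were tested. *Fabp7*, the brain-type member, measured 1.54 ± 0.81 CPM in untreated cells and 3.35 ± 0.65 with IL-4 (log2 fold change 1.10, SE 0.32, adjusted p = 0.086, or 1.13 and 0.042 with the mouse as replicate block). Between IL-4-treated cells and the difference it passed (-1.42, SE 0.33, adjusted p = 0.0059), a call lost without mouse 3 (-1.26, adjusted p = 0.094). With the mouse as replicate block it also passed between IL-4 and the remainder (-0.88, adjusted p = 0.037, against 0.06 without the block) and in the interaction with the difference read as the part with IL-4 (-1.68, adjusted p = 0.026, against 0.051).

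**Figure D4:**
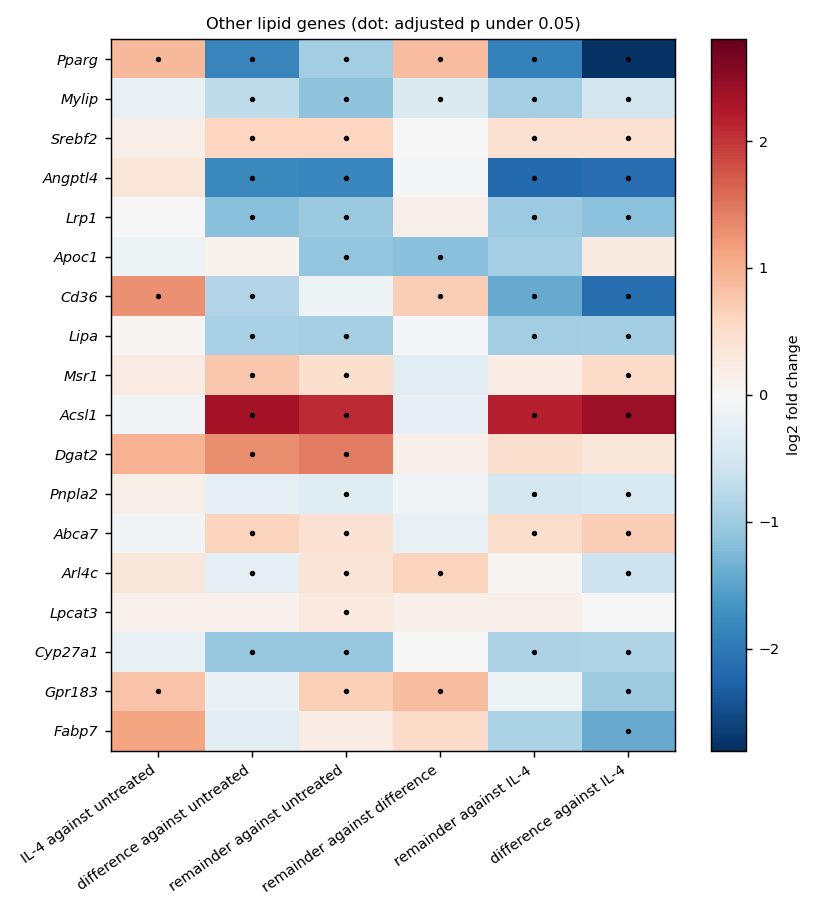
Log2 fold changes (colour) of 18 genes chosen by rule from the 7 lists, in the 6 comparisons between groups, with a dot where the adjusted p was below 0.05. *Pparg* and *Cd36* are red with IL-4 and blue in the difference, *Acsl1* and *Dgat2* are red in both Wnt3a-treated parts, and *Angptl4*, *Lrp1*, *Lipa* and *Cyp27a1* are blue in both.

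The members with the widest range of group means were *Lpl* (2.30 on the log2 CPM scale), *Apoe* (1.72) and *Ch25h* (1.34). Over the 12 libraries, genes most like *Lpl* included *Hip1* (Pearson r = 0.98) and *Kbtbd2* (0.98). *Hip1* followed the group means of *Lpl* at 210 CPM in untreated cells, 281 with IL-4, 89.7 in the difference and 116 in the remainder. Those most like *Apoe* were *Bcr* (0.97), *Peg13* (0.97) and *Slc9a9* (0.97), and those most like *Ch25h* were *Alox5* (0.92), *Garnl3* (0.90) and *Btg2* (0.90). Among the members, *Lpl* ran with *Abcg1* (r = 0.89) and *Plin2* (0.80) and against *Fabp5* (-0.91), and *Abcg1* ran with *Plin2* (0.90). These values describe 12 libraries that share mice and treatments and carry no test.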

How the data were processed

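Per the labels, RNA was sequenced as single reads. The authors deposited raw counts per gene, made per the submitters' processing notes with Trimmomatic 0.36, STAR 2.6.0 (mm10) and HTSeq 0.11.1. The study names UCSC genes, but rows carry Ensembl identifiers. A mouse gene table gave a symbol for 48058 of these 48526. Positions and overlaps came from GENCODE for GRCm38.

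Counts of the difference and the remainder were solved for in each mouse. After a filter of 10 counts or more in 3 or more libraries, 12421 genes were fitted with edgeR 4.0.16 in R 4.3.3 (TMM scaling, quasi-likelihood test, 12 libraries in 4 groups, no term for the mouse, threshold 0.05). Log2 CPM used a prior count of 2. DESeq2 1.42.0 was an alternative, with other scalings, no filter, only the groups compared, the deposited columns, the mouse as block and each mouse left out. The procedure was tested on simulated data. P-values rest on the spread between the 3 mice within each group, pooled over the 4 groups, and treat the 12 libraries as independent. Counting intervals would cover counting error only.

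The same animal gave 1 sample to each group, so the mouse pairs them. Deviations of same-mouse libraries from their group means correlated between -0.42 and 0.45 in 18 pairs, and 6 were over 0.1.

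The members and the gene lists were chosen with earlier results of these data known. Named genes are all members, up to 3 genes per list past the threshold in any of the 6 comparisons between groups with the largest changes and a mean of 1 CPM or more in either group, and the 3 genes most like each of the 3 members of widest range. *Nr1h2*, *Nr1h3*, *Abhd5*, *Npc1* and *Npc2* were named outside this rule, after their values were seen. Results for 2 genes that this rule would name are not reported here, and 1 of them was left out of its list.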

Additional observations from a re-analysis of the deposited data

Results flagged for a closer look

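The interaction of IL-4 and Wnt3a passed the threshold for *Abcg1* (-1.02 on the log2 scale) and *Lpl* (-0.99) in edgeR's quasi-likelihood test where the difference is read as the part that also received IL-4. That is, in that reading the change with IL-4 differed between cells with and without Wnt3a. Neither call held without mouse 3 (*Abcg1* -0.92, adjusted p = 0.063, and *Lpl* -0.82, adjusted p = 0.15). That of *Lpl* was also lost without mouse 2 (-0.88, adjusted p = 0.073) and with the deposited columns (-0.79, adjusted p = 0.062). Read the other way, the same test gave -0.15 (adjusted p = 0.77) for *Abcg1* and -0.53 (adjusted p = 0.36) for *Lpl*. Of the listed genes called higher with IL-4 alone, *Pparg* (0.87, adjusted p = 0.00017), *Gpr183* (0.86, adjusted p = 6.4e-05) and *Cd36* (0.70, adjusted p = 0.014) were higher in the remainder than in the difference. So was *Abcg1*. *Abhd5* (-0.01, adjusted p = 0.97) and *Lpl* (0.23, adjusted p = 0.46) were not called there. The call of *Cd36* was lost without mouse 3 (0.67, adjusted p = 0.2). The labels do not give which reading holds, and this was not tested.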

How the results depend on the processing

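Of 450 values of single members (9 genes, 5 comparisons, 10 alternatives), 404 kept their direction and side of the threshold, 19 lost a call, 17 gained one and 10 changed sign, none of these with a call. The sign changes were those of *Abca1* with IL-4 (-0.019 with total counts alone, -0.14 to 0.12 with a mouse left out), of *Fabp4* in the remainder (-0.094 with total counts alone, -0.014 with the mouse as replicate block and -0.15 with the deposited columns, -0.21 to 0.13 with a mouse left out), of *Fabp5* with IL-4 (-0.11 to 0.087 with a mouse left out), of *Abca1* in the remainder (-0.25 to 0.37 with a mouse left out) and against IL-4 (-0.11 to 0.28 with a mouse left out), and of *Fabp5* between the parts (-0.033 to 0.12 with a mouse left out). The cause was not tested. Between the remainder and the difference, the 1 member called became 3 with all genes of at least 1 count, and 0 with only the groups compared, the mouse as replicate block or the deposited columns. The block changed no other call among the members. The 652 genes called there became 1454, 422 (only the groups compared) and 0 (deposited columns, whose columns share reads). With all genes of at least 1 count, 812 genes were called with IL-4, and the interactions had 1 and 4 members and 575 and 1505 genes called (remainder and difference read as the part with IL-4). With the deposited columns, these were 708 genes with IL-4, 142 genes in the first interaction, and 1 member and 311 genes in the second. DESeq2 called 165 genes in the first interaction, against 13.

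With a mouse left out, members and genes called ranged from 0 to 1 and 77 to 296 with IL-4, 3 to 5 and 1220 to 2117 in the difference, 3 to 6 and 1375 to 3807 in the remainder, 0 to 1 and 97 to 1188 between the parts, and 3 to 6 and 1043 to 2499 for the remainder against IL-4. The difference against IL-4 ranged from 1208 to 2289 genes, the first interaction from 0 to 34 genes, and the second from 0 to 3 members and 265 to 1459 genes. All the lowest values were those without mouse 3, although 2 mice per group remain whichever mouse is left out. Low counts limit *Apoc2*, at 0 to 3 per library, and *Ch25h*, at 8 to 40. For *Apoc2*, 79.5% of exon bases also lie in *Gm44805* on the same strand. The part of this overlap in its low counts was not tested.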
